A study of Mus musculus with 4 samples.

Results

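The vesicle traffic and lysosomal proton pump genes taken here were the rows of the deposited table whose symbol starts with Atp6v, Atp6ap, Trappc or Tbc1d, with Rab, Vps, Sec, Arf, Arl, Snx or Exoc followed by a digit, or with Cop followed by a, b, e, g or z. They numbered 62 of the 2979 genes in the table. RNA was sequenced from lung fibroblasts, which make the collagen-rich matrix of the organ. All 4 libraries came from BALB/c mice of wild-type genotype, 4 weeks old. The chemokine group (n = 2 libraries) was given recombinant human chemokines for 3 hours, 8 nM CXCL1 with 2 nM CXCL2 and 20 nM CXCL8, and the control group (n = 2 libraries) is labelled only as control. The labels do not say whether replicates came from separate cultures or animals, nor how many animals were pooled, so p-values measure the spread between these libraries, which may be technical. In bulk RNA, fewer cells of a type and less RNA per cell cannot be told apart.

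Cells move membrane and cargo in vesicles. COPII coats carry cargo out of the endoplasmic reticulum and COPI coats return it from the Golgi, small GTPases of the Rab, Arf and Arl families mark each compartment, and tethers catch the arriving vesicle. The vacuolar proton pump turns ATP into an acid interior in endosomes and lysosomes, which fibroblasts need for turnover of matrix taken up from outside and for the processing of secreted matrix proteins.

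The table is a list that the authors had already selected, and it sets what can be read from it. In none of the 2979 genes did the chemokine and control values overlap, and no fold in the authors' deposited table lies between 0.906 and 1.12. Library totals worked out from the values were 28603764 and 33854493 reads for chemokine and 31859688 and 36863654 reads for control. Of 12 fibroblast markers 6 were listed, all 6 rose, and their summed level was 1937 and 1970 RPKM (reads per kilobase of exon, scaled to library size) in the chemokine libraries, against 1691 and 1678 RPKM in the control libraries. Of 12 macrophage markers 3 were listed and all fell, with sums of 36.0 and 34.5 RPKM in chemokine libraries, against 46.8 and 47.3 RPKM in control libraries. Of 10 endothelial markers 3 were listed and all rose, with sums of 10.3 and 10.9 RPKM in chemokine libraries, against 6.43 and 6.60 RPKM in control libraries. Of 9 epithelial markers 3 were listed and the 2 tested rose. The other, with a mean below 1 RPKM and so not tested, was lower in the chemokine libraries. Of 6 smooth muscle and pericyte markers 1 rose and 1 fell. Of the neutrophil and lymphocyte markers 0 were listed, and markers outside the table were not analysed here. Over all tested genes 42.8% rose and 57.2% fell. With a trend on exon length and GC content removed, as described below, 27.2% passed upward and 27.5% downward. There 5 fibroblast markers passed as rises and 1, S100a4, as a fall. The 3 macrophage markers passed as falls and the 3 endothelial markers as rises. Of the epithelial markers 0 passed, and of the smooth muscle and pericyte markers 1 passed, as a fall. The part of other cell types in the results was not tested.

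After chemokine exposure, genes on both sides of 0 were found in each branch of the machinery. At an adjusted p below 0.05, 27 of the 62 genes rose and 35 fell (limma on log2(RPKM + 1), Benjamini-Hochberg adjustment). All 2956 tested genes of the table passed (100%), 42.8% upward and 57.2% downward, so every member passed as every tested gene did. Since the list had been selected and holds no gene with overlapping groups, the p-values here and below cannot be read as error rates. The members' shares, 43.5% upward and 56.5% downward, are near that background. The median log2 fold change was -0.21 over the 62 genes and -0.23 over all tested genes. Changes had a size between 0.17 and 0.64 on the log2(RPKM + 1) scale, which understates those of low genes. The deposited folds of the members ran from 0.508 to 1.58. When the test required a fold of at least 1.2 in RPKM + 1, 4 members passed, against 13.8% of all tested genes. Arl5c and Sec61b rose (background 3.28%), and Vps13c and Tbc1d8b fell (background 10.5%). The added 1 shrinks the fold of low genes, so members that did not pass can still differ by more in RPKM. Vps13b, for example, had a deposited fold of 0.637 and did not pass.

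**Figure D1:**
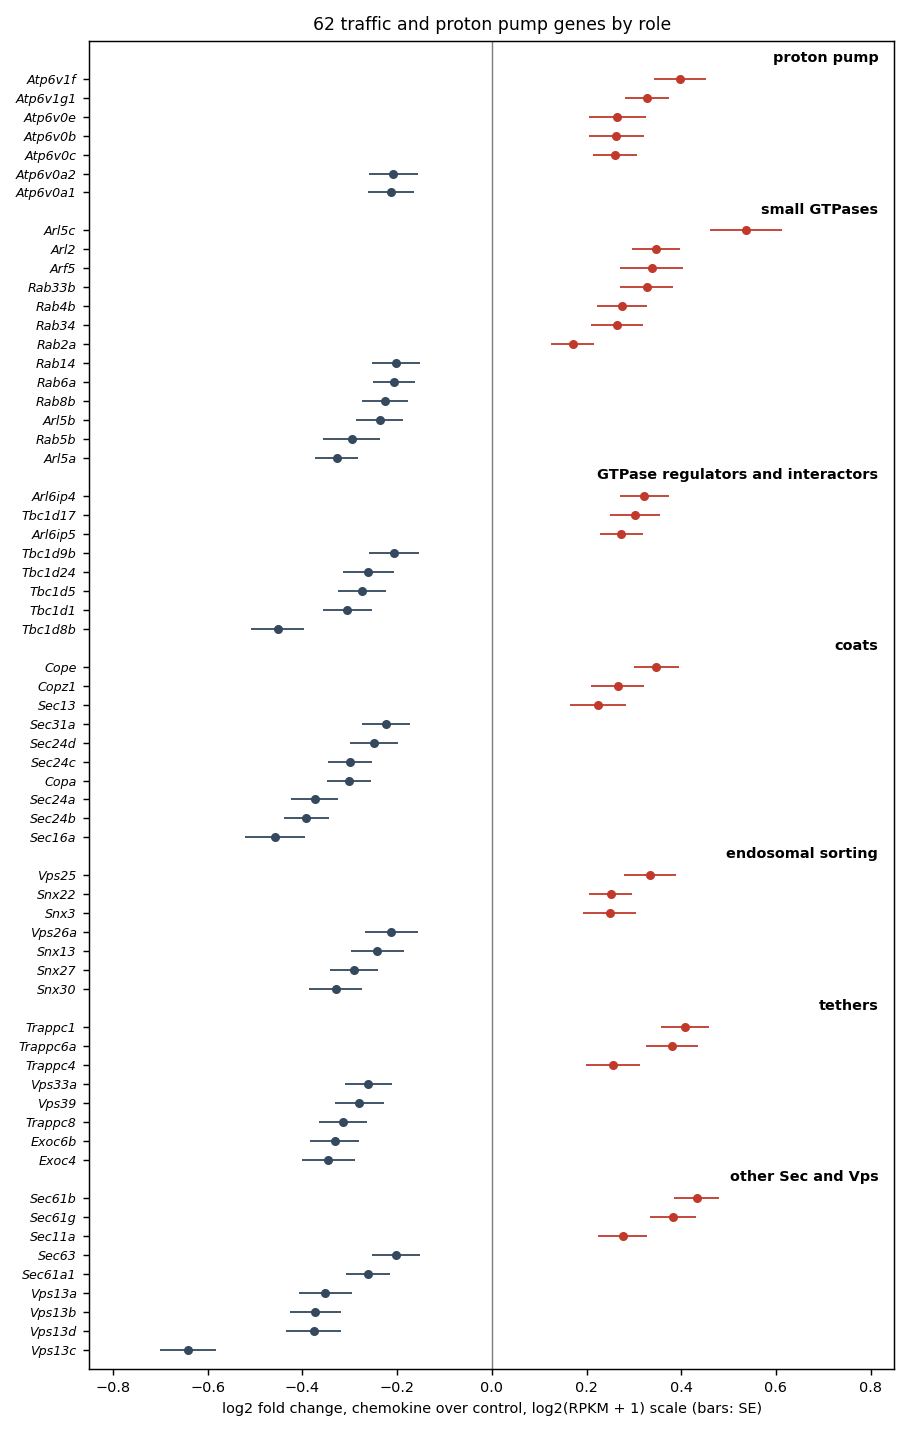
Log2 fold change of chemokine over control for all 62 genes on the log2(RPKM + 1) scale, grouped by role, with bars for the SE of limma (n = 2 libraries per group). Each role holds genes on both sides of 0, and Vps13c (-0.64) and Arl5c (0.54) lie farthest out.

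The members that rose mostly had a short exon length and those that fell a long one, as in the rest of the table. Exon length here is the union of all annotated exons of a gene, which can be longer than its transcripts. All 17 members with an exon length under 2500 bases rose, and 30 of the 31 with at least 5000 bases fell. Of the 14 members in between, 9 rose and 5 fell. The one long gene that rose was Tbc1d17, at 9726 bases, and the shortest that fell was Vps26a, at 2860 bases. Across the 62 members, Spearman's rho of log2 fold change with exon length was -0.79, and across the 2891 other listed genes it was -0.72. These are descriptions across genes of the same 4 libraries. Among the other listed genes 96.8% of those under 2500 bases rose and 90.8% of those with at least 5000 bases fell. Its part in each change was not tested. Values are therefore also given after a trend on exon length and GC content had been removed from every library. The removal also centred each library over the listed genes, and the median of all tested genes moved up by 0.22 on the log2 scale. After that removal 28 members passed, against 54.7% of all tested genes, 16 of them upward (27.2%) and 12 downward (27.5%). Of the 35 falls, 4 passed as rises there, namely Rab14, Vps13a, Vps13b and Vps13d.

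**Figure D2:**
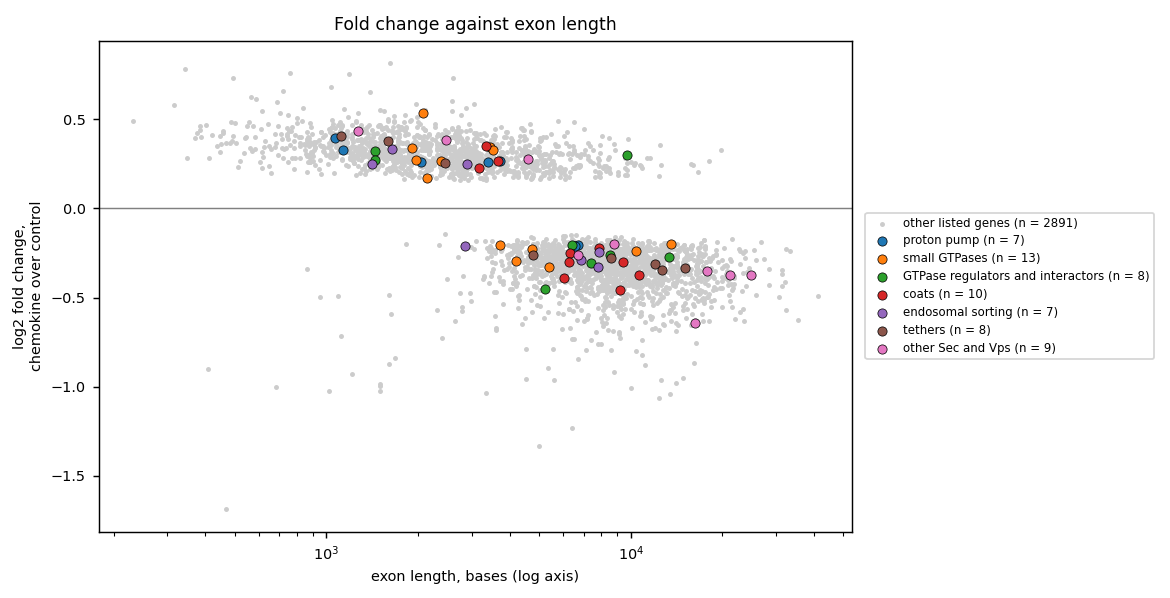
Log2 fold change of chemokine over control against exon length in bases on a log axis, for the 62 members coloured by role and the 2891 other listed genes in grey. Members under 2500 bases all lie above 0, and 30 of the 31 members with at least 5000 bases lie below it.

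A second limit is the scaling of the libraries. Rescaling by the median of ratios over the listed genes moved the median of all tested genes up by 0.21 on the log2 scale. The 27 rises all passed again, as did all 1264 rises of the table. The step moved the rises further above 0 (Atp6v1f from 0.40 to 0.62), so it is no check on them. Of the 35 falls 12 passed. Over all tested genes 70.0% passed, 42.8% upward and 27.2% downward. The other 23 falls did not pass, and 8 of these took a value just above 0.

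The proton pump had 7 listed genes, of which 5 rose and 2 fell (median log2 fold change 0.26). The pump is built from a V1 sector that splits ATP and a V0 sector that carries protons through the membrane. Both listed V1 genes rose. Atp6v1f, a subunit of the central shaft that turns as ATP is split, was at 41.3 and 43.3 RPKM in the chemokine libraries, against 33.1 and 30.7 RPKM in the control libraries. Atp6v1g1, part of the outer stalk that holds the catalytic head in place, was at 189.9 and 198 RPKM in chemokine cells, against 152 and 156 RPKM in control cells. In both genes the chemokine libraries lay above the control libraries with no overlap, as in every listed gene. The log2 fold change was 0.40 ± 0.05 (SE, adjusted p = 0.000327) for Atp6v1f and 0.33 ± 0.05 (adjusted p = 0.000383) for Atp6v1g1. Once length and GC were adjusted for, neither passed, at 0.01 ± 0.05 and 0.00 ± 0.04. Atp6v1f lies on chromosome 6 from 29467718 to 29470512 and Atp6v1g1 on chromosome 4 from 63544772 to 63550750, in GRCm38. Their read numbers could be recovered exactly: Atp6v1f had 1256 and 1557 reads in the chemokine libraries, against 1120 and 1203 in the control libraries.

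In the V0 sector the small membrane subunits rose. Atp6v0c forms most of the rotating ring that carries protons, and it was at 142 and 137 RPKM in chemokine libraries, against 116 and 117 RPKM in control libraries. Atp6v0b, the variant ring subunit, was at 70.0 and 75.8 RPKM in chemokine libraries, against 58.3 and 62.8 RPKM in control libraries. Atp6v0e, a small subunit beside the ring, was at 42.4 and 47.2 RPKM in chemokine libraries, against 38.0 and 36.2 RPKM in control libraries. The 3 genes had close log2 fold changes, 0.26 ± 0.05 for Atp6v0c, 0.26 ± 0.06 for Atp6v0b and 0.27 ± 0.06 for Atp6v0e. Atp6v0e (0.28 ± 0.06, adjusted p = 0.00587) and Atp6v0c (0.18 ± 0.04, adjusted p = 0.00605) still passed with the trend removed, and Atp6v0b did not (0.05 ± 0.05). Atp6v0b shares exon bases with an antisense gene, Gm12841, so part of its reads could belong to that gene.

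The large a subunits of V0, which hold the half-channels for protons and steer the pump to its compartment, fell in the values as deposited, but not after rescaling. Atp6v0a1 was at 14.5 and 14.0 RPKM in chemokine libraries, against 16.6 and 16.8 RPKM in control libraries. Atp6v0a2, the isoform known from the Golgi, was at 12.1 and 11.6 RPKM in chemokine libraries, against 14.1 and 13.6 RPKM in control libraries. Both had a log2 fold change of -0.21 ± 0.05, with adjusted p of 0.00265 and 0.00372. Neither passed with the trend removed (-0.07 ± 0.04 and -0.06 ± 0.04), and after median-of-ratios rescaling both turned to 0.01 without passing. Without control 1, Atp6v0a2 no longer passed (-0.18 ± 0.10, adjusted p = 0.0661). The levels of the a isoforms were far below those of the ring subunit, since in control cells Atp6v0c averaged 117 ± 1.25 RPKM and Atp6v0a1 16.7 ± 0.117 RPKM (SD, n = 2).

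**Figure D3:**
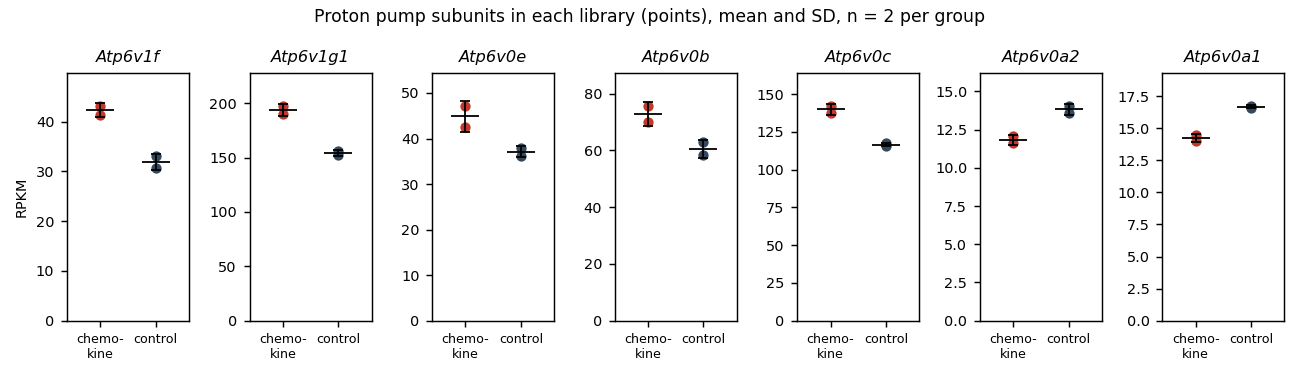
RPKM of the 7 proton pump genes in each chemokine and control library (points), with the mean and SD of each group (n = 2), on axes that start at 0. The 5 small subunits are higher in chemokine libraries, and Atp6v0a2 and Atp6v0a1 are lower.

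Of the 62 members, 48 had a promoter in the RefSeq table (build GRCm38.p6), and the 250 bases before the start were searched on both strands for letters that transcription factors of the lysosome and of ER stress are known to read. These motifs were chosen after the values had been seen. TCACGTGA, the core of the element that TFEB reads in lysosomal genes, was present in 3 of the 48 members, in 0.907% of all 27025 genes with a promoter and in 2.34% of the other listed genes. CACGTG, the shorter E-box that lies inside it, was present in 7 of the 48, in 6.86% of all genes and in 10.6% of the other listed genes. TGACGTGG, the unfolded protein response element, was present in Sec24d alone of the 48, in 0.603% of all genes and in 0.919% of the other listed genes. The longer ER stress element was present in 0 of the 48 and in 0.130% of all genes. The promoters below show Atp6v0b with CACGTG, Arl2 and Vps33a with TCACGTGA, and Sec24d with TGACGTGG, each in capitals and 5′ to 3′ on the gene's strand.
Atp6v0b, chr4:117887330-117887579, minus strand: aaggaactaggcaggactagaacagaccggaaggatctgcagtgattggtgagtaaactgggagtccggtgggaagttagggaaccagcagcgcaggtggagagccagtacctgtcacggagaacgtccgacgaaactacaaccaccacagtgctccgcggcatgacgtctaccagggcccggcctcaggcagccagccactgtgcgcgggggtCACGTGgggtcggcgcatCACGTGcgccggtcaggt
Arl2, chr19:6141138-6141387, minus strand: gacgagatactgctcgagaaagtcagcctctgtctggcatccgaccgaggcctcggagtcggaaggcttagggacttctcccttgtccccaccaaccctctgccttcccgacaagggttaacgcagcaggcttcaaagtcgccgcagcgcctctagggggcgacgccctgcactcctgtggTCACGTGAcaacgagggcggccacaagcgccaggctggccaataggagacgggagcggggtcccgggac
Vps33a, chr5:123573016-123573265, minus strand: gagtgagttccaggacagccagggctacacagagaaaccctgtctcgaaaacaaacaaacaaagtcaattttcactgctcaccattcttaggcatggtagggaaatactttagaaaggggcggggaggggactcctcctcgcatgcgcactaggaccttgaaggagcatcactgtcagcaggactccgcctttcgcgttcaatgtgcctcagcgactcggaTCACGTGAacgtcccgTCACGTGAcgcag
Sec24d, chr3:123267246-123267495, plus strand: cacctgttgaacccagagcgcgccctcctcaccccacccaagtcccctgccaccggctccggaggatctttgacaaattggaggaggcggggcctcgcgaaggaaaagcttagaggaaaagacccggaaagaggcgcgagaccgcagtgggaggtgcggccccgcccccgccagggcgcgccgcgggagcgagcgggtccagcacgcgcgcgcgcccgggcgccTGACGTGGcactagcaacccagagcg
Of the carriers of TCACGTGA, Arl2 rose while Vps33a and Vps26a fell. Atp6v0b, with the shorter CACGTG, rose, and Sec24d, the carrier of TGACGTGG, fell.

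Small GTPases were divided, with 7 risers and 6 fallers among 13. Arl5c, an Arl of the Golgi subfamily, rose most, at 6.09 and 5.09 RPKM in chemokine libraries, against 3.42 and 3.64 RPKM in control libraries. It had 361 and 357 reads in chemokine libraries, against 226 and 278 reads in control libraries, the lowest recovered read numbers among the members. The log2 fold change was 0.54 ± 0.08 (adjusted p = 0.000358) and stayed past the threshold with the trend removed (0.36 ± 0.08, adjusted p = 0.00991). Its relatives Arl5a and Arl5b, of the trans-Golgi, fell as deposited. Arl5a was at 45.8 and 45.0 RPKM in chemokine libraries, against 57.7 and 56.7 RPKM in control libraries, and Arl5b at 2.32 and 2.30 RPKM, against 2.91 and 2.88 RPKM in control libraries. With the trend removed Arl5a kept its direction past the threshold (-0.16 ± 0.04, adjusted p = 0.0113), while Arl5b had 0.11 ± 0.04 without passing, and neither passed after rescaling (-0.10 and -0.07).

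Arl2, which works with tubulin folding cofactors, and Rab33b, a Golgi Rab that also binds the autophagy machinery, rose in both fits. Arl2 was at 13.4 and 13.1 RPKM in chemokine libraries, against 9.96 and 10.4 RPKM in control libraries. Rab33b was at 15.3 and 16.6 RPKM in chemokine libraries, against 12.7 and 12.2 RPKM in control libraries. Their log2 fold changes were 0.35 ± 0.05 and 0.33 ± 0.06, and 0.27 ± 0.04 and 0.31 ± 0.05 with the trend removed (adjusted p = 0.00191 and 0.00258). Arf5, an Arf of the early secretory pathway, was at 40.9 and 41.0 RPKM in chemokine libraries, against 30.0 and 34.5 RPKM in control libraries, a change that did not pass with the trend removed (0.06 ± 0.06). Rab4b, of recycling endosomes, and Rab34, of lysosome position and cilia, likewise rose (0.27 ± 0.05 and 0.26 ± 0.06) and did not pass with the trend removed (0.03 and 0.08). Arl2, Arf5 and Rab33b share exon bases with an antisense gene and Rab4b with a gene on its own strand, so these values are uncertain.

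Rab2a, of traffic between the endoplasmic reticulum and Golgi, was at 81.5 and 82.2 RPKM in chemokine libraries, against 71.8 and 73.5 RPKM in control libraries. Rab6a, which directs transport back through the Golgi, was at 49.5 and 49.7 RPKM in chemokine libraries, against 57.3 and 57.6 RPKM in control libraries. Rab2a had the smallest log2 fold change of the members, 0.17 ± 0.04, and did not pass with the trend removed (0.05 ± 0.04, adjusted p = 0.307) or without control 1 (0.15 ± 0.09, adjusted p = 0.101). Rab6a had -0.21 ± 0.04 and passed with the trend removed (-0.16 ± 0.04, adjusted p = 0.00977), but was at 0.02 after rescaling; it shares exon bases with the antisense gene Mrpl48. Rab5b, which marks early endosomes, was at 16.7 and 15.0 RPKM in chemokine libraries, against 19.5 and 19.8 RPKM in control libraries, with -0.30 ± 0.06 as deposited and -0.26 ± 0.05 with the trend removed (adjusted p = 0.00675). After rescaling Rab5b had -0.08 and did not pass. Rab8b, of transport to the cell surface, was at 16.7 and 17.1 RPKM in chemokine libraries, against 20.0 and 19.9 RPKM in control libraries. Its log2 fold change was -0.23 ± 0.05, and it passed neither with the trend removed (-0.10) nor after rescaling. Rab14, between Golgi and endosomes, had -0.20 ± 0.05 as deposited but passed in the opposite direction with the trend removed (0.20 ± 0.04, adjusted p = 0.00615), and did not pass without control 1 (adjusted p = 0.0670).

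Among genes that regulate or bind these GTPases, 3 rose and 5 fell. Many Tbc1d proteins switch Rabs off by speeding GTP hydrolysis, and 5 of the 6 listed fell as deposited. Over all tested genes 57.2% fell. All 6 have at least 5000 bases of exon, and of the other listed genes of that length 90.8% fell. Tbc1d8b, encoded on the X chromosome, was at 4.58 and 4.34 RPKM in chemokine libraries, against 6.67 and 6.26 RPKM in control libraries. Its log2 fold change of -0.45 ± 0.06 (adjusted p = 0.000249) was among the 2 falls that passed against a fold of 1.2 (adjusted p = 0.0379), and it passed with the trend removed (-0.30 ± 0.05) and after rescaling (-0.26). Tbc1d1, known from glucose transporter traffic in muscle, was at 19.4 and 18.2 RPKM in chemokine libraries, against 23.1 and 23.9 RPKM in control libraries, with -0.31 ± 0.05 as deposited and -0.13 ± 0.04 with the trend removed (adjusted p = 0.0219). Tbc1d1 did not pass after rescaling (-0.08). Tbc1d5, which acts on Rab7 at the retromer, was at 2.84 and 2.92 RPKM in chemokine libraries, against 3.72 and 3.65 RPKM in control libraries. It had -0.27 ± 0.05 as deposited and did not pass with the trend removed (0.10 ± 0.05) or after rescaling (-0.10). Tbc1d24 was at 1.09 and 0.997 RPKM in chemokine libraries, against 1.40 and 1.496 RPKM in control libraries, and it passed after rescaling (-0.13, adjusted p = 0.0393) but not with the trend removed (-0.05). Tbc1d9b passed in neither alternative (-0.10 with the trend removed). Tbc1d9b also did not pass without control 1 (-0.19 ± 0.10, adjusted p = 0.0534). Tbc1d17 went the other way, at 9.64 and 9.52 RPKM in chemokine libraries, against 7.37 and 7.79 RPKM in control libraries. Its log2 fold change was 0.30 ± 0.05 as deposited and 0.51 ± 0.04 with the trend removed (adjusted p = 0.000644), the highest of the members there; it shares exon bases with the antisense genes Akt1s1 and Il4i1. Arl6ip5, a membrane protein of the endoplasmic reticulum, was at 125 and 128 RPKM in chemokine libraries, against 104 and 105 RPKM in control libraries. Arl6ip4, a nuclear protein linked to splicing that is in the group by its symbol, was at 32.7 and 34.5 RPKM in chemokine libraries, against 27.2 and 26.1 RPKM in control libraries. With the trend removed Arl6ip5 had 0.01 and Arl6ip4 -0.01, and neither passed.

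Coats had 3 risers and 7 fallers. In COPI, 2 small subunits rose and the large one listed fell. Cope, the epsilon subunit, was at 34.1 and 34.6 RPKM in chemokine libraries, against 26.4 and 27.3 RPKM in control libraries, and Copz1, the zeta subunit, at 49.4 and 54.1 RPKM, against 43.4 and 42.2 RPKM in control libraries. Copa, the alpha subunit that forms the outer cage and binds returning cargo, was at 35.8 and 34.5 RPKM in chemokine libraries, against 43.6 and 43.5 RPKM in control libraries. The rises of Cope (0.35 ± 0.05) and Copz1 (0.27 ± 0.06) passed with the trend removed (0.27 ± 0.04 and 0.25 ± 0.05), and the fall of Copa (-0.30 ± 0.05) did not pass there (-0.03 ± 0.04) or after rescaling (-0.08). Copa shares exon bases with the antisense genes Gm37756 and Ncstn.

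In COPII, Sec13 rose while its partner in the outer cage, Sec31a, the 4 listed Sec24 genes that pick cargo and the exit site scaffold Sec16a fell. Sec13 was at 44.4 and 49.4 RPKM in chemokine libraries, against 39.3 and 40.6 RPKM in control libraries. Sec31a was at 31.8 and 31.6 RPKM in chemokine libraries, against 36.0 and 38.4 RPKM in control libraries. Their log2 fold changes were 0.22 ± 0.06 and -0.22 ± 0.05. Sec13 passed with the trend removed (0.17 ± 0.05, adjusted p = 0.0289); Sec31a did not (-0.03 ± 0.04), turned to 0.00 after rescaling and did not pass without control 2 (-0.18 ± 0.10, adjusted p = 0.0618). Sec24b was at 19.1 and 18.6 RPKM in chemokine libraries, against 24.9 and 25.2 RPKM in control libraries. Sec24a was at 5.05 and 5.12 RPKM in chemokine libraries, against 6.90 and 6.87 RPKM in control libraries. Sec16a was at 9.44 and 8.39 RPKM in chemokine libraries, against 12.3 and 12.9 RPKM in control libraries, and showed more spread between its chemokine libraries than the Sec24 genes did. Sec16a (-0.46 ± 0.06) and Sec24b (-0.39 ± 0.05) passed in the same direction with the trend removed (-0.23 ± 0.04 and -0.28 ± 0.04) and after rescaling (-0.25 and -0.17). Of the other Sec24 genes, Sec24c, which overlaps an antisense gene, passed with the trend removed (-0.18 ± 0.04) but not after rescaling (-0.08), Sec24a passed after rescaling (-0.18) but not with the trend removed (-0.08 ± 0.04), and Sec24d passed in neither (-0.09 and -0.03).

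**Figure D4:**
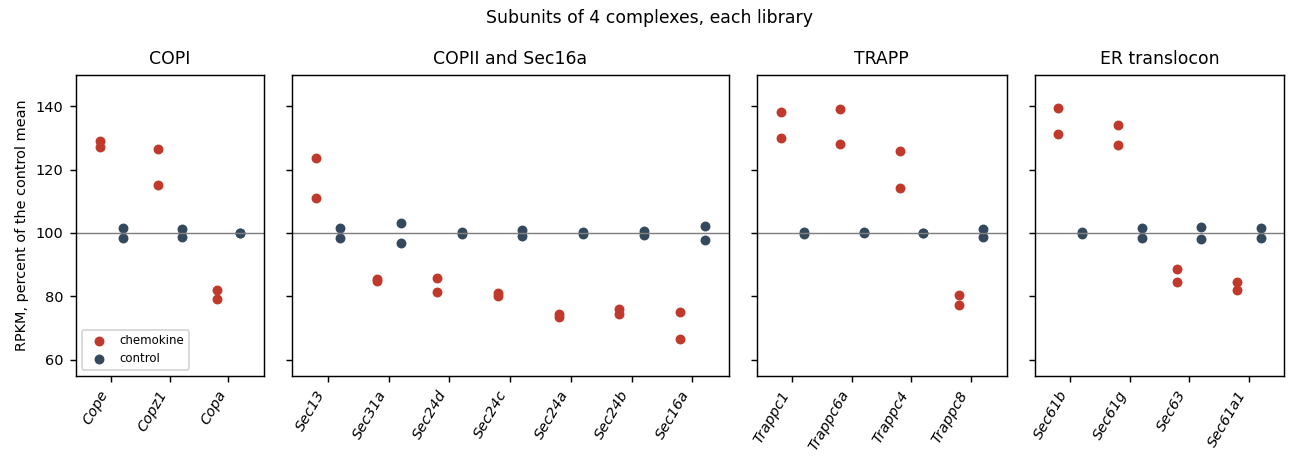
RPKM of each library as a percentage of the control mean for subunits of COPI, COPII with Sec16a, TRAPP and the ER translocon; chemokine libraries are red and stand left of the control libraries. In each complex the genes drawn first lie above 100 in both chemokine libraries and the rest lie below it.

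At the entry to the secretory pathway, the channel of the endoplasmic reticulum that takes in new proteins had genes on both sides. Its small subunits rose: Sec61b was at 142 and 150.5 RPKM in chemokine libraries, against 108 and 108 RPKM in control libraries. Sec61g was at 74.4 and 78.1 RPKM in chemokine libraries, against 59.2 and 57.3 RPKM in control libraries. Sec61a1, the pore itself, was at 62.1 and 60.3 RPKM in chemokine libraries, against 72.3 and 74.6 RPKM in control libraries, and is thus the lower of the 3 in chemokine cells but not in control cells, where Sec61g was lower. The log2 fold changes were 0.43 ± 0.05 for Sec61b, 0.38 ± 0.05 for Sec61g and -0.26 ± 0.05 for Sec61a1. With the trend removed Sec61g (0.29 ± 0.04, adjusted p = 0.00128) and Sec61a1 (-0.11 ± 0.04, adjusted p = 0.0324) passed and Sec61b did not (0.08 ± 0.04, adjusted p = 0.0842). Sec61a1 was at -0.03 after rescaling and did not pass. Sec63, which brings the chaperone BiP to the channel, had -0.20 ± 0.05 and turned without passing both with the trend removed (0.09) and after rescaling (0.02). It did not pass without control 2 (-0.17 ± 0.10, adjusted p = 0.0711). Sec11a, the catalytic subunit of the signal peptidase, was at 20.8 and 22.2 RPKM in chemokine libraries, against 17.5 and 17.6 RPKM in control libraries, and rose in both fits (0.28 ± 0.05 and 0.35 ± 0.04). Sec11a shares exon bases with Nmb and with an antisense gene, and Sec61a1 and Sec63 with antisense genes.

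Tethers had 3 risers, all of the TRAPP complex, and 5 fallers. TRAPP acts at the Golgi and as an exchange factor for Rabs. Trappc1 was at 35.3 and 37.6 RPKM in chemokine libraries, against 27.1 and 27.3 RPKM in control libraries, and Trappc6a at 12.8 and 11.7 RPKM, against 9.19 and 9.16 RPKM in control libraries. Trappc4 was at 52.3 and 57.7 RPKM in chemokine libraries, against 45.9 and 45.8 RPKM in control libraries; it shares exon bases with the antisense ribosomal gene Rps25. Trappc8, a large subunit found in only one form of the complex, was at 8.88 and 9.25 RPKM in chemokine libraries, against 11.4 and 11.6 RPKM in control libraries. The log2 fold changes were 0.41 ± 0.05, 0.38 ± 0.06, 0.26 ± 0.06 and -0.31 ± 0.05 for Trappc1, Trappc6a, Trappc4 and Trappc8, and with the trend removed none of the 4 passed (0.07, 0.05, 0.12 and 0.07), Trappc8 having turned. Of the exocyst, which docks vesicles at the plasma membrane, Exoc4 was at 4.91 and 4.52 RPKM in chemokine libraries, against 6.29 and 6.22 RPKM in control libraries. Exoc6b was at 2.31 and 2.30 RPKM in chemokine libraries, against 3.07 and 3.25 RPKM in control libraries. Both lay below control as deposited (-0.34 ± 0.06 and -0.33 ± 0.05) and passed as falls after rescaling (-0.15, adjusted p = 0.0202, and -0.16, adjusted p = 0.0155), but with the trend removed they took positive values that did not pass (0.03 and 0.10). Vps39, of the tether that joins late endosomes to lysosomes, was at 4.72 and 4.50 RPKM in chemokine libraries, against 5.86 and 5.75 RPKM in control libraries. Its fall of -0.28 ± 0.05 did not pass with the trend removed (-0.06 ± 0.04) or after rescaling (-0.08). Vps33a, of the same tether, was at 8.48 and 8.39 RPKM in chemokine libraries, against 10.5 and 10.2 RPKM in control libraries, and passed with the trend removed (-0.21 ± 0.04, adjusted p = 0.00557) but not after rescaling (-0.05).

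Of the endosomal sorting genes 3 rose and 4 fell. Snx3, a sorting nexin that returns cargo from endosomes with the retromer, had the highest level, at 147 and 161 RPKM in chemokine libraries, against 131 and 128 RPKM in control libraries. Vps25, of the ESCRT-II complex that sorts ubiquitinated receptors, was at 36.5 and 37.5 RPKM in chemokine libraries, against 30.4 and 28.0 RPKM in control libraries. Neither passed with the trend removed, where Snx3 turned to -0.05 ± 0.04 and Vps25 had 0.07 ± 0.05; Vps25 shares exon bases with Ramp2. Snx22 was at 63.9 and 62.4 RPKM in chemokine libraries, against 53.0 and 52.8 RPKM in control libraries, and passed in both fits (0.25 ± 0.05 and 0.13 ± 0.04), but its exons overlap those of the antisense gene Ppib, a cyclophilin of the endoplasmic reticulum, so its reads are uncertain. Vps26a, the arrestin-like subunit of the retromer, was at 29.0 and 31.4 RPKM in chemokine libraries, against 34.3 and 36.0 RPKM in control libraries. It is the shortest of the fallers, and its log2 fold change was -0.21 ± 0.06 as deposited, -0.24 ± 0.04 with the trend removed (adjusted p = 0.00492) and 0.01 after rescaling. Without control 2 it did not pass (-0.18 ± 0.10, adjusted p = 0.0631). Snx27, which recycles receptors to the surface, was at 5.72 and 5.76 RPKM in chemokine libraries, against 7.36 and 7.13 RPKM in control libraries. Snx30 was at 4.99 and 4.80 RPKM in chemokine libraries, against 6.64 and 6.18 RPKM in control libraries, and Snx13 at 5.75 and 5.39 RPKM in chemokine libraries, against 6.95 and 6.59 RPKM in control libraries. These 3 fell by 0.29, 0.33 and 0.24 on the log2 scale and did not pass with the trend removed (-0.10, -0.13 and 0.02). After rescaling Snx30 passed (-0.13, adjusted p = 0.0449), and Snx27 and Snx13 did not. Snx30 shares exon bases with a gene on its own strand.

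The 4 Vps13 genes, which encode long bridge-like lipid transfer proteins, all fell as deposited. Vps13c, which links the endoplasmic reticulum to late endosomes and lysosomes, changed most of all members, with 1.46 and 1.25 RPKM in chemokine libraries, against 2.66 and 2.67 RPKM in control libraries. The log2 fold change was -0.64 ± 0.06 (adjusted p = 0.000149), and the fold in the authors' deposited table was 0.508. It stayed below control with the trend removed (-0.20 ± 0.04, adjusted p = 0.00817) and after rescaling (-0.49). Vps13d was at 1.54 and 1.35 RPKM in chemokine libraries, against 2.14 and 2.20 RPKM in control libraries. Vps13b was at 1.12 and 1.02 RPKM in chemokine libraries, against 1.64 and 1.72 RPKM in control libraries, and Vps13a at 1.09 and 0.954 RPKM, against 1.53 and 1.63 RPKM in control libraries. These 3 passed as falls after rescaling (-0.23, -0.24 and -0.22) but passed as rises with the trend removed (0.15 each, adjusted p from 0.0192 to 0.0260), so their direction depends on that step. At such low levels the 1 added to RPKM shrinks a change: the deposited folds were 0.666, 0.637 and 0.647. No trend-removed fit with another pseudocount was run, so the part of the added 1 in the turn was not tested. They are the longest members, at 24771 bases for Vps13d, 21273 for Vps13b and 17801 for Vps13a, against 16299 for Vps13c. Vps13a and Vps13b overlap antisense genes, Cox6c among them for Vps13b.

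**Figure D5:**
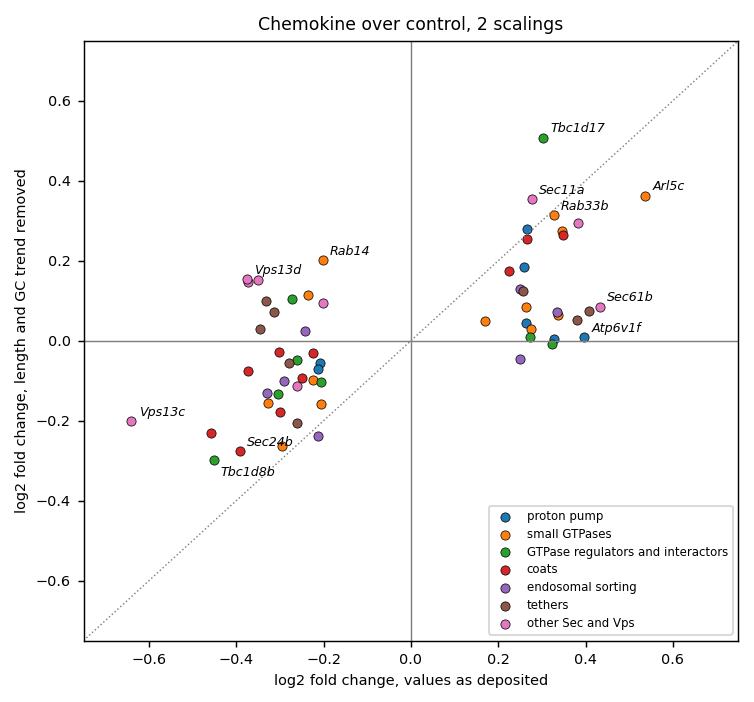
Log2 fold change of chemokine over control for the 62 members as deposited (x axis) and with the length and GC trend removed (y axis), coloured by role; the dotted line marks equal values. Tbc1d17, Arl5c and Tbc1d8b stay far from 0 on both axes, while Vps13d and Rab14 change sign.

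Past the threshold and in one direction both with the trend removed and after rescaling, 16 of the 62 genes remained (25.8%), against 1124 of all tested genes (38.0%). The 12 that rose were Atp6v0e, Atp6v0c, Arl5c, Arl2, Rab33b, Tbc1d17, Cope, Copz1, Sec13, Snx22, Sec61g and Sec11a. The 4 that fell were Tbc1d8b, Sec24b, Sec16a and Vps13c. Rescaling took away none of the rises. The trend-removed fit also moved the median of all tested genes up, by 0.22 on the log2 scale. For the 12 rises it was therefore a check on length and GC alone, and neither fit was a check on the scaling. The split of 12 and 4 therefore cannot compare rises with falls.

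Genes that work beside these were counted from lists drawn up by function. Every tested gene passed, 42.8% upward and 57.2% downward. With the trend removed, 27.2% of all tested genes passed upward and 27.5% downward. The shares by length given above hold for short and long genes, so the counts below are descriptions of the lists. Of 38 SNARE genes, which fuse vesicle and target, 6 were tested, 5 rose and 1 fell. Vamp8, of late endosomes, was at 21.1 and 21.4 RPKM in chemokine libraries, against 15.8 and 15.7 RPKM in control libraries, and with Vamp5 (0.44 ± 0.07) it passed also with the trend removed (0.25 and 0.33), where the list had 4 rises and 0 falls. Of 51 lysosomal genes 10 were tested, with 7 rises and 3 falls. Cathepsin K (Ctsk), a protease that cuts collagen, rose by 0.41 ± 0.05, Ctsf, another cathepsin, by 0.40 ± 0.06 and Npc2, which hands cholesterol out of the lysosome, by 0.30 ± 0.05, and all 3 passed with the trend removed (0.16, 0.44 and 0.40), where the list had 5 rises and 1 fall.

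Of 25 cargo receptors and partners of the early secretory pathway 11 were tested, with 10 rises and 1 fall. Tmed1 and Tmed3, p24 proteins that ride in COPI and COPII vesicles, rose by 0.35 ± 0.05 and 0.32 ± 0.05, and only 2 of the 10 rises, Tmed3 and Tmed9, passed with the trend removed. All 6 tested of 23 golgins and Golgi matrix genes fell, led by Trip11 at 4.33 and 4.38 RPKM in chemokine libraries, against 6.70 and 6.84 RPKM in control libraries. Trip11 (-0.23), Golgb1 (-0.15) and Bicd2 (-0.12) passed with the trend removed. Of 33 adaptor and clathrin genes 11 were tested, 4 rose and 7 fell, with 2 higher and 3 lower past the threshold once the trend was removed. The clathrin light chains Clta and Cltb rose (0.24 ± 0.05 each) and the heavy chain Cltc fell (-0.37 ± 0.05), and of these Cltb alone passed with the trend removed (0.27). Picalm, a clathrin assembly protein, fell as deposited (-0.34 ± 0.05) but passed as a rise with the trend removed (0.11, adjusted p = 0.0388). Of 31 exchange factors and Arf regulators 12 were tested, 2 rose and 10 fell, with Dennd4c (-0.44 ± 0.06), Gbf1 (-0.44 ± 0.06) and Iqsec1 (-0.43 ± 0.08) the farthest below control. With the trend removed 3 were higher and 5 lower past the threshold. Dennd5b had 0.27 ± 0.05 as deposited and 0.76 with the trend removed, and Dennd4a had -0.31 ± 0.06 as deposited but passed as a rise with the trend removed (0.15, adjusted p = 0.0281). Of 22 genes of lysosomal mTORC1 control and the TFEB family 7 were tested. Lamtor4 and Lamtor5, small subunits of the lysosomal anchor of mTORC1, rose by 0.32 ± 0.06 and 0.36 ± 0.08, while Mtor, Rptor, Fnip1, Fnip2 and Tsc1 fell. With the trend removed Mtor alone of these 7 passed (-0.15). The median exon length ran from 1874 bases for the cargo receptors to 11006 bases for the golgins. After rescaling, 804 falls passed over all tested genes, where 1692 had fallen as deposited. In the lists, falls that passed numbered 3 of 6 for golgins, 6 of 10 for exchange factors and 3 of 5 for the mTORC1 list. They numbered 2 of 7 for adaptors and clathrin, 1 of 1 for cargo receptors, 0 of 3 for lysosomal genes and 0 of 1 for SNAREs. Every rise of these lists passed, as did all 1264 rises of the table.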

How the data were processed

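RNA sequencing values of 2 chemokine and 2 control libraries were read from 1 table of the whole series. Per the submitters' processing notes, TopHat2 2.0.7, DESeq2 and the build GRCm38/mm10 were used, with no role or order given; how reads were counted, on which strand and annotation, and how genes were selected is not given in the sources used here. Values in the deposited table are in RPKM, worked out from the values, since the header gives no unit: for 1176 genes, 22 of them members, each value equals a whole number of reads times 1000000000 over the GENCODE M21 exon length and a whole library total (relative tolerance 1e-12). Depth came from these totals. The fold the authors deposited is a linear ratio within 0.805% of the ratio of means. Libraries of a pair differed by more than sampling noise (mean chi-square per gene 11.1 for chemokine, 3.65 for control, over the 1176 genes).

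The test was limma 3.58.1 (R 4.3.3), with its trend option, fitted to log2(RPKM + 1) for 2956 genes whose mean reached 1 RPKM, with Benjamini-Hochberg adjustment, two-sided, at 0.05, and it was tested on simulated data. All 62 members passed that filter, with means from 1.25 to 174 RPKM over the 4 libraries. Changes of low genes are understated on this scale. The smallest p from an exact permutation test of 2 against 2 libraries is 0.333. The members and lists were chosen with earlier results of these data known, and the members were put in roles by product. Values of every library are given by the rule that takes all pump genes, up to 4 of the farthest from 0 each way and the 2 highest levels per role, and others, Vps33a among them, were added after their values were seen. Alternatives covered scaling, pseudocount, filter, replicate block, length and GC trend, a fold of 1.2 and leaving out each library. Exon length, overlaps and GC were taken from the GENCODE M21 annotation (GRCm38), which held 2976 of 2979 identifiers. Of the members, 21 share exon bases with another gene; without the strand setting, reads of antisense partners cannot be told apart.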

Additional observations from a re-analysis of the deposited data

How the results depend on the processing

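The 62 members kept their direction and side of the threshold without a filter, with a pseudocount of 0.1 and with the replicate number as a block (27 rises and 35 falls each time). In this balanced design a block cannot change a fold change, so direction was fixed in advance there. For Atp6v1f the block raised the SE from 0.054 to 0.065, yet the adjusted p of limma fell from 0.000327 to 4.96e-09. Passing with the block therefore adds little. The replicate numbers were not treated as pairs, since the labels state no shared source. Deviations of same-numbered libraries were only weakly correlated (-0.16 over 2956 genes). The crossed replicate block, chosen after seeing the data, also gave 27 rises and 35 falls, with 1264 and 1692 over all genes. Direction was fixed in advance there too.

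With the length and GC trend removed, all tested genes had 803 rises and 813 falls and the members 16 and 12, and with the replicate block as well 773 and 771, and 16 and 11. By role the trend-removed rises and falls were 2 and 0 for the pump, 4 and 3 for small GTPases, 1 and 2 for regulators, 3 and 3 for coats, 1 and 1 for endosomal sorting, 0 and 1 for tethers and 5 and 2 for the other Sec and Vps genes, and the added block changed only the last, to 5 and 1. The fold of 1.2 left 97 rises and 310 falls, 2 and 2 among members, at 0 and 0 for the pump, 1 and 0 for small GTPases, 0 and 1 for regulators, 0 and 0 for coats, sorting and tethers and 1 and 1 for the others. Rescaling left 804 falls, 12 among members, with 0 for the pump and GTPases, 2 for regulators, 3 for coats, 1 for sorting and 2 for tethers. A mean of at least 10 RPKM left 691 falls, 19 among members, with 2 for regulators, 1 for sorting, 1 for tethers and 2 for the others.

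The members' median of -0.21 turned to 0.010 with rescaling, to 0.25 among genes of at least 10 RPKM and to 0.029 with the trend removed, with or without the block. Leaving out a library gave medians from -0.23 to -0.19 and from 1 to 2 falls in the pump. The 13 genes that turned with the trend removed, equally with the block, were Rab14 (0.20), Sec63 (0.090), Arl5b (0.11), Arl6ip4 (-0.0085), Exoc4 (0.029), Exoc6b (0.10), Snx13 (0.025), Snx3 (-0.047), Tbc1d5 (0.10), Trappc8 (0.071), Vps13a (0.15), Vps13b (0.15) and Vps13d (0.15). The 8 that turned with rescaling were Atp6v0a1 (0.0052), Atp6v0a2 (0.0077), Rab6a (0.021), Vps26a (0.013) and, also just above 0, Rab14, Tbc1d9b, Sec31a and Sec63. The cause was not tested. Precision is limited by 2 libraries per group more than by depth.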
